A study of Rattus norvegicus with 52 samples.

Results

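The collagen gene family was examined in single cells cut from rat arterial aneurysms. Its members were the genes whose symbol is Col, a number, a and a number, which gave 42 of the 22081 genes in the count table. All 52 cells of the series were used. They came from 3 male Sprague Dawley rats, labelled as 7 weeks old. Rat 1 gave 5 cells, rat 2 gave 23 and rat 3 gave 24. Every rat carried the same induced lesion: the left common carotid artery was joined end to side to the right one, the left renal artery was tied, and the chow was salted to 8% and also carried 3-aminopropionitrile at 0.12%. That agent blocks lysyl oxidase, and with it the cross-links between collagen chains, and every rat received it. Macrophages in the lesions were marked in the living animal by intravenous nanoparticles carrying the dye DiI, and 3 days later labelled cells were cut out singly by laser. The labels call them macrophages. Of 21 macrophage markers a cell held 16.4% ± 3.91 at 1 or more counts (SD, n = 3 rats). Over all genes of the table the value was 12.6% ± 3.88 (SD, n = 3 rats). Marker lists of other cell types stood at 17.0% (fibroblast without collagens), 19.7% (Schwann), 22.6% (endothelial), 27.6% (smooth muscle) and 31.5% (cartilage and bone). At 5 or more counts the macrophage list stood at 7.44%, cartilage and bone at 7.11% and the others at 0% to 3.88%. All genes stood at 1.99% there. Cd68 and Ptprc, defining markers of macrophages and of leukocytes, were each found in 6 of the 52 cells. Fcgr3a of the same list was found in 35 cells, and Cybb and Spi1 in 16 each. There was 1 group and no untreated artery among the samples analysed here, so collagens were compared with each other within the same cells.

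Collagens are extracellular proteins built of alpha chains that wind into a triple helix. Fibrillar collagens form the tensile fibres of the artery's media and adventitia. Type IV collagens form the sheet-like net of basement membranes under endothelium and around smooth muscle cells. The others coat fibrils, form beaded filaments near cells, build short-chain nets or span the cell membrane. Fibroblasts and smooth muscle cells are the textbook sources of fibrillar collagen in a vessel wall, and macrophages are better known for taking up and degrading it.

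Of the 42 members, 10 were fibrillar, 6 belonged to basement membrane type IV and 26 were other collagens. Col1a2, Col6a3 and Col21a1 have no row under those symbols and were not analysed here. The feature NEWGENE_621351_2, which neither the files nor the reference table name, had up to 518 counts in cells with Col1a1 and is in no class. Whether it is a collagen gene is not known here, and if it were, the class shares and counts would change. Counts ran from 1538 to 84848 per cell with a median of 15068, and 384 to 5417 genes had a count. The median total was 18261 in rat 1, 11390 in rat 2 and 21841 in rat 3. A count of 0 allows up to 35.4 CPM (counts scaled to a common library total) in the deepest cell and up to 1951 CPM in the shallowest, by the limit of 3 counts. Intervals and limits cover counting error only. Counts are not divided by transcript length. Counts, count shares and CPM levels of different genes and classes are set side by side below as counts only, and their differences are not read as expression.

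All 42 members had a count in at least 1 cell, against 84% of all genes. In at least 10 cells, 24 members had a count, against 20.7% of all genes, and 1 member, Col1a1, in at least 26 cells, against 4.16% of all genes. At least 5 counts in some cell were reached by 18 members (27.4% of all genes), at least 5 counts in 3 or more cells by 4 members (7.22% of all genes), and at least 100 counts in some cell by 5 members (2.54% of all genes). The median member was found in 10.5 cells, and the median gene of the table in 4. A cell held a median of 9 collagen genes with a count, from 1 to 21. Collagens took a median of 0.140% of a cell's counts, from 0.00998% to 4.95%.

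**Figure D1:**
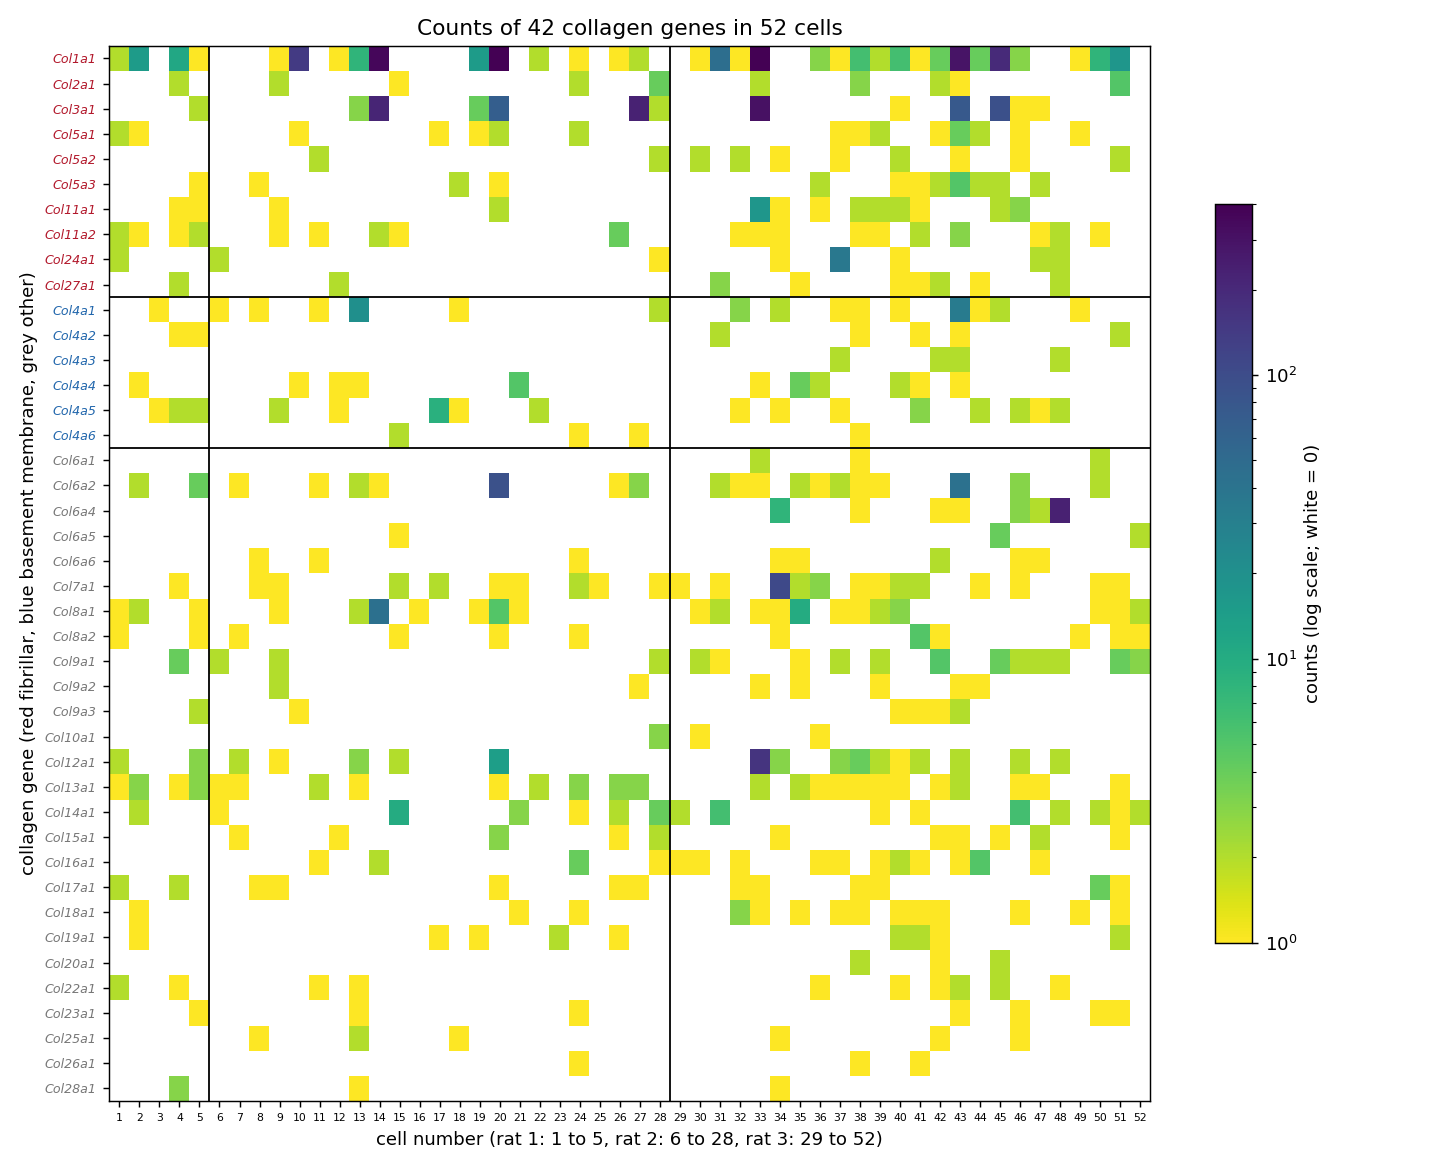
Counts of the 42 collagen genes (rows) in the 52 cells (columns, split by rat), with colour on a log scale and white for 0. Most filled squares are 1 to 4 counts, and the dark squares of 100 counts or more belong to Col1a1, Col3a1, Col6a4, Col12a1 and Col7a1 in 9 cells.

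Collagen counts were gathered in few cells. In 9 cells at least 1 collagen reached 100 counts, and these cells held 3643 of the 4452 collagen counts, or 81.8%. The other 43 cells held 1 to 63 collagen counts each, with a median of 16. Both kinds of value stood together in the same table: 24 members never reached 5 counts in any cell, and 66.3% of their 202 nonzero values were a single count.

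Among fibrillar collagens, Col1a1 encodes the chain that makes up most of type I collagen, the main fibre of the artery wall. It was found in 33 of 52 cells (63.5%, exact Clopper-Pearson 95% interval 49.0 to 76.4), more cells than any other member. The 5 cells of rat 1 had 2, 15, 0, 11 and 1 counts. In rat 2 the counts ran from 0 to 398 with a median of 0, and in rat 3 from 0 to 397 with a median of 2.5. The ranges of the 3 rats overlap, and in each rat some cells had none.

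At 5 or more counts Col1a1 was found in 15 cells, 2 of rat 1, 5 of rat 2 and 8 of rat 3. In 8 of them it had 6 to 17 counts and in cell 31 of rat 3 it had 46. The remaining 6 stood far higher, with 144, 356 and 398 counts in cells 10, 14 and 20 of rat 2 and 397, 293 and 197 counts in cells 33, 43 and 45 of rat 3. In cell 14 of rat 2 Col1a1 alone took 2.84% of all counts. No cell of rat 1 reached 46 counts.

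Col3a1 encodes the chain of type III collagen, which forms fibrils together with type I in elastic vessels. It was found in 13 cells, and 6 of them had at least 5 counts. Those 6 held 215, 66 and 226 counts in cells 14, 20 and 27 of rat 2 and 304, 75 and 92 counts in cells 33, 43 and 45 of rat 3. The other 7 cells had 1 to 4 counts, so no cell lay between 4 and 66. In rat 1 the gene had 2 counts in cell 5 and 0 in the other cells.

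**Figure D2:**
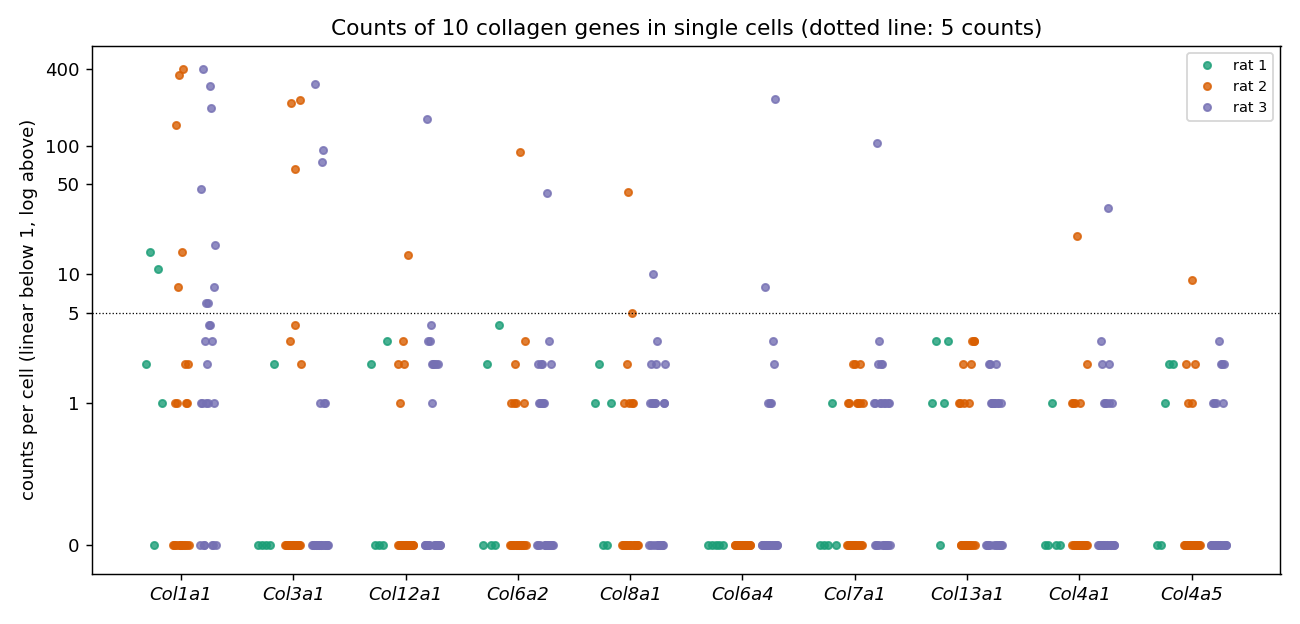
Counts per cell of 10 collagen genes (vertical axis linear below 1 and log above), with each point a cell, coloured by rat. Col1a1 and Col3a1 each have several cells above 50 counts in rat 2 and in rat 3, while Col13a1 stays at 3 counts or fewer in every cell.

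The remaining fibrillar genes were low in nearly all cells. Col11a2, a cartilage-type chain that helps to set fibril width, was found in 19 cells with at most 4 counts. Col5a1 and Col5a2, chains of type V collagen that nucleate type I fibrils, were found in 15 and 10 cells with at most 4 and 2 counts. Col11a1 reached 17 counts in cell 33 of rat 3, Col24a1 36 counts in cell 37 of rat 3, and Col5a3 and Col2a1 at most 5. Col27a1, a minor fibrillar chain, had at most 3 counts. Together Col1a1 and Col3a1 made up 66.1% of all collagen counts.

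A type IV collagen reached 5 counts in 4 cells. Col4a1, which with Col4a2 makes the common vascular form of type IV collagen, was found in 16 cells. Its highest counts were 33 in cell 43 of rat 3 and 20 in cell 13 of rat 2, and in every other cell it had at most 3. Col4a2 was found in 7 cells with at most 2 counts, and in 0 cells of rat 2. Col4a5 was found in 16 cells, with 9 counts in cell 17 of rat 2 and at most 3 elsewhere. Col4a4 was found in 11 cells with at most 5 counts, and Col4a3 and Col4a6 in 4 cells each with at most 2.

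The 6 type IV genes lie in head-to-head pairs, with start sites 77 bases apart for Col4a1 and Col4a2 on chromosome 16, 413 for Col4a3 and Col4a4 on chromosome 9, and 1415 for Col4a5 and Col4a6 on chromosome X in the RefSeq annotation of rat assembly GRCr8. The promoter windows of the closer pairs are shown because each pair's windows share sequence, 176 bases in Col4a1 and Col4a2 and 88 bases in Col4a3 and Col4a4. Capitals mark matches on either strand to CCAAT or to the GC box GGGCGG, and TATAAA was searched as well. Each is written 5′ to 3′ on its gene's own strand. The Col4a1 window is chr16:84885347-84885646 (plus strand), the Col4a2 window chr16:84885471-84885770 (minus strand), the Col4a3 window chr9:91323740-91324039 (plus strand) and the Col4a4 window chr9:91323528-91323827 (minus strand).
Col4a1: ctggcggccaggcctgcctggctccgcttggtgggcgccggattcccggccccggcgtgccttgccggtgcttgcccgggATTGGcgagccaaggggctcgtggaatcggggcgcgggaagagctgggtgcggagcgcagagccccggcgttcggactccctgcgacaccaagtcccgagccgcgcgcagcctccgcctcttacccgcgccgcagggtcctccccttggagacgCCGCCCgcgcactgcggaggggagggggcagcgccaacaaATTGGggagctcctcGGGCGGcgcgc
Col4a2: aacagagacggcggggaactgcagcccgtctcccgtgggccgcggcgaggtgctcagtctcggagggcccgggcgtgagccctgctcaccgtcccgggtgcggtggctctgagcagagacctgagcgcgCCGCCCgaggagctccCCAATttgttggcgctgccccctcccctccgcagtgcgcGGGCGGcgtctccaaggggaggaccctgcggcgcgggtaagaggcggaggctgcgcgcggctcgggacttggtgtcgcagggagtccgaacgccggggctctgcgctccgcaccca
Col4a3: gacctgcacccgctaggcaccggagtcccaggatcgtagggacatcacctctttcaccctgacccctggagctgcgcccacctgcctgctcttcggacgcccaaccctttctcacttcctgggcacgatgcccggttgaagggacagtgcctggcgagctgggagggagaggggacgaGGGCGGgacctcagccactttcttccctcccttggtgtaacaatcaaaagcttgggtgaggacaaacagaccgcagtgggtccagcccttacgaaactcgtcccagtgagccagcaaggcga
Col4a4: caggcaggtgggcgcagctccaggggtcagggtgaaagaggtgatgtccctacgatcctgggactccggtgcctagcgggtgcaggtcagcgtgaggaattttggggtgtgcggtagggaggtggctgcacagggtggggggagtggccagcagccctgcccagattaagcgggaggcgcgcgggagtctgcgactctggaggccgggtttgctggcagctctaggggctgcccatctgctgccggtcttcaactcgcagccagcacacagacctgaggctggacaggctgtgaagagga
The Col4a1 window held 2 CCAAT and 2 GC box matches, the Col4a2 window 1 and 2, the Col4a3 window 0 and 1, and the Col4a4 window none. Every match of the Col4a2 window is also a match of the Col4a1 window, the same site read from the other strand. These shared sites are counted in both windows. TATAAA was in none of these 4 windows. Of 33469 RefSeq promoter windows of the same length, CCAAT is in 37.5%, GGGCGG in 33.1% and TATAAA in 14.2%. Windows were found for 33 of the 42 members, 36 windows in all. Of these members, 10, 19 and 3 hold the motifs, in the same order, in at least 1 of their windows. This counts members and the percentages count windows, so the 2 are not the same measure. A match describes letters only.

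Col4a1 and Col4a2 were found together in 2 of the 21 cells that had either, Col4a3 and Col4a4 in 1 of 14, and Col4a5 and Col4a6 in 0 of 20. No cell had 5 counts of both genes of a pair, and none could, as Col4a2, Col4a3 and Col4a6 never reached 5 counts. With counts this low a chain that is present can be missed, and absence of a partner could not be told apart from low depth.

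Among the other collagens, the beaded-filament gene Col6a2 was found in 20 cells. It had 90 counts in cell 20 of rat 2 and 43 in cell 43 of rat 3, and at most 4 in all others. Col6a1, whose chain joins that of Col6a2 in type VI collagen, was found in 3 cells with at most 2 counts, and all 3 also had Col6a2. Col6a4 was found in 7 cells, all of rat 3, and 232 of its 248 counts were in cell 48. Col6a6 was found in 8 cells and Col6a5 in 3, with at most 2 and 4 counts.

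Genes whose products coat fibrils, the FACIT collagens, were found in 3 to 17 cells. Col12a1, which decorates type I fibrils, had 161 counts in cell 33 of rat 3 and 14 in cell 20 of rat 2, and at most 4 elsewhere. Col14a1, its close relative, was found in 16 cells and reached 10 counts in cell 15 of rat 2. Col9a1 and Col16a1 were found in 16 and 15 cells with at most 5 counts. Col9a2, Col9a3, Col19a1, Col20a1 and Col22a1 had at most 2 counts in any cell.

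The short-chain gene Col8a1, known for expression in vascular cells, was found in 22 cells. It had 44 counts in cell 14 of rat 2, 10 in cell 35 of rat 3 and 5 in cell 20 of rat 2. Its partner Col8a2 was found in 12 cells with at most 5 counts, and Col10a1, a gene of hypertrophic cartilage, in 3 cells.

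Col13a1, a transmembrane collagen, was the second most widely found member, in 25 cells. Its counts in the 5 cells of rat 1 were 1, 3, 0, 1 and 3, and no cell of any rat had more than 3. Col17a1, Col23a1 and Col25a1, also transmembrane, were found in 13, 7 and 6 cells with at most 4 counts. Col7a1, the gene of anchoring fibrils, was found in 23 cells, and 106 of its 136 counts were in cell 34 of rat 3. The multiplexins Col15a1 and Col18a1, of basement membrane zones, were found in 11 and 14 cells with at most 3 counts. Col26a1 and Col28a1 were found in 3 cells each.

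The classes were then compared within rats. At 1 or more counts a cell held 28.9% ± 9.64 of the fibrillar members, 19.8% ± 5.82 of the basement membrane members and 20.3% ± 6.42 of the other collagens (SD, n = 3 rats). Over all genes of the table the value was 12.6% ± 3.88 (SD, n = 3 rats). The fibrillar class exceeded the basement membrane class by 9.18 ± 3.87 percentage points, in 3 of 3 rats, with an exact sign-flip permutation p of 0.25 and a Benjamini-Hochberg adjusted p of 0.417 over 10 tests. It exceeded the other collagens by 8.60 ± 5.79 points, also in 3 of 3 rats (exact p = 0.25, adjusted p = 0.417). Without Col1a1, an alternative chosen after the values were seen, these differences were 4.88 and 4.30 points. Basement membrane and other collagens differed by -0.58 ± 4.29 points, positive in rat 1 and negative in rats 2 and 3 (exact p = 0.75, adjusted p = 0.833). With 3 rats the smallest p this 2-sided test can give is 0.25, so no difference could pass 0.05.

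At 5 or more counts a cell held 4.58% ± 1.47 of the fibrillar members, 0.956% ± 1.11 of the basement membrane members and 0.866% ± 0.882 of the other collagens, against 1.99% ± 0.785 of all genes (SD, n = 3 rats). Fibrillar members exceeded basement membrane members by 3.62 ± 2.15 points and other collagens by 3.71 ± 0.956 points, each in 3 of 3 rats (exact p = 0.25, adjusted p = 0.417). They were 0.607 and 0.697 points without Col1a1, and -0.26 and -0.17 points without both genes. Basement membrane members and other collagens differed by 0.0898 ± 1.21 points (exact p = 1, adjusted p = 1).

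**Figure D3:**
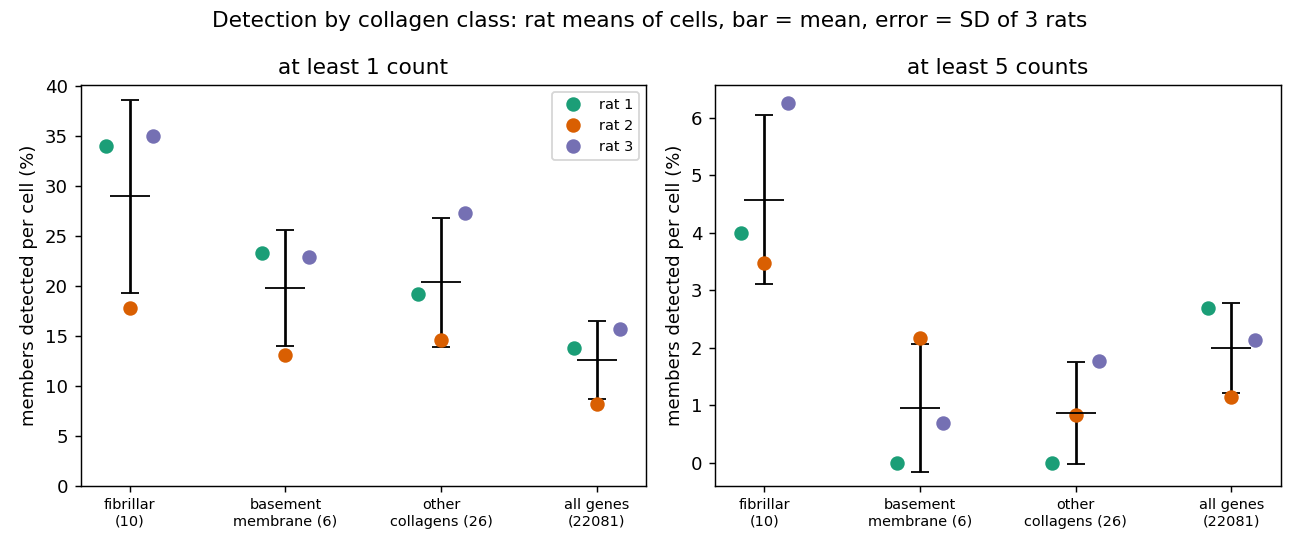
Percent of the members of each class detected per cell, at 1 or more counts (left) and 5 or more counts (right). Points are rat means over cells, and the black bar and error show the mean and SD of 3 rats; the fibrillar mean is 28.9% on the left and 4.58% on the right.

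On the log2(CPM + 1) scale the mean level was 1.97 ± 0.46 for fibrillar members, 1.23 ± 0.20 for basement membrane members and 1.28 ± 0.34 for other collagens, against 0.83 ± 0.21 for all genes (SD, n = 3 rats). The difference was 0.74 ± 0.26 between fibrillar and basement membrane members and 0.69 ± 0.25 between fibrillar members and other collagens, positive in 3 of 3 rats each (exact p = 0.25, adjusted p = 0.417). It was 0.34 and 0.29 without Col1a1. Basement membrane members and other collagens differed by -0.05 ± 0.21, positive in rat 1 and negative in rats 2 and 3 (exact p = 0.75, adjusted p = 0.833). These levels are not per length.

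The share of collagen counts that a class took depended on whether cells or counts were weighted. As a mean over cells within each rat, fibrillar genes took 37.7% ± 1.83 and basement membrane genes 15.8% ± 8.81 of a cell's collagen counts (SD, n = 3 rats). Without cell 3 of rat 1, whose 2 collagen counts were both of basement membrane genes, the basement membrane share was 9.56%. In the summed counts of all cells the shares were 70.8% and 3.30%. Single cells ran from 0% to 98.6% fibrillar.

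The number of collagen genes with a count correlated with the number of all genes with a count, at a Pearson r of 0.89 and a Spearman rho of 0.90 over 52 cells, and at r = 0.85 in rat 2 (23 cells) and 0.86 in rat 3 (24 cells). Rat 1, with 5 cells, was not computed alone. Both measures share the library and its depth, and collagens are among the genes counted. For collagen genes at 5 or more counts r was 0.27 over 52 cells. These values are descriptions of the cells.

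**Figure D4:**
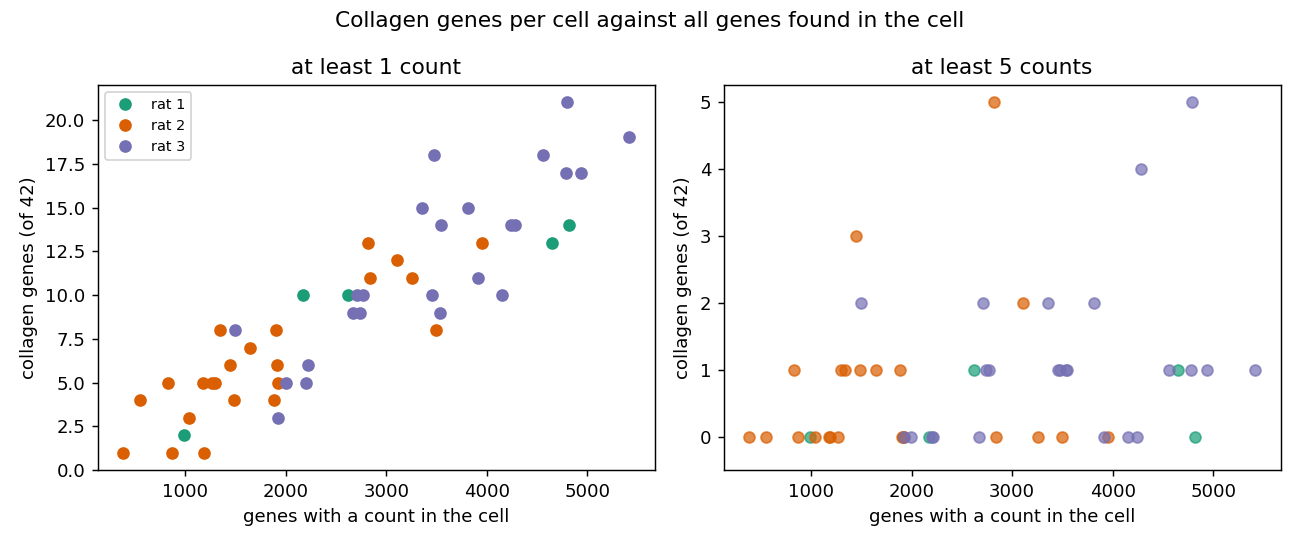
Number of collagen genes per cell, of 42, at 1 or more counts (left) and 5 or more counts (right), against the number of genes with a count in the cell. On the left the points rise together (r = 0.89), and on the right most cells hold 0 or 1 collagen gene at any depth.

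Collagens at 5 or more counts occurred in 27 cells. Of these, 18 cells had 1 such gene, 5 had 2, 1 had 3, 1 had 4 and 2 had 5. A fibrillar gene reached 5 counts in 17 cells, a basement membrane gene in 4 and another collagen in 13. Fibrillar and basement membrane genes met in 2 cells, which is 11.8% of the fibrillar cells and 50.0% of the basement membrane cells. Fibrillar genes and other collagens met in 5 cells, 29.4% of the fibrillar and 38.5% of the other set. At 1 count a fibrillar gene was found in 44 cells, a basement membrane gene in 38 and another collagen in 51. Fibrillar genes then met basement membrane genes in 36 cells and other collagens in 44, and all 3 classes met in 36. The product of the 2 classes' shares of cells, times 52, was 32.2 and 43.2 at 1 count. At 5 counts it was 1.31 and 4.25.

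Cell 43 of rat 3 was the only cell with all 3 classes at 5 counts. It held 293 Col1a1, 75 Col3a1, 33 Col4a1, 43 Col6a2 and 5 Col5a3 counts. Cell 20 of rat 2 also had 5 genes, with 398 Col1a1, 66 Col3a1, 90 Col6a2, 14 Col12a1 and 5 Col8a1 counts. Cell 33 of rat 3 had 397 Col1a1, 304 Col3a1, 161 Col12a1 and 17 Col11a1 counts.

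Col1a1 and Col3a1 met at 5 counts in 5 cells, which is 33.3% of the Col1a1 cells and 83.3% of the Col3a1 cells. The exceptions went both ways. Cell 27 of rat 2 had 226 Col3a1 and 2 Col1a1 counts, and cell 10 of rat 2 had 144 Col1a1 and 0 Col3a1 counts. Both cells with Col12a1 at 5 counts, both with Col6a2 and both with Col4a1 were among the 15 Col1a1 cells. Among cells at 5 counts, Col1a1 cells were 2 of 3 for Col8a1 and 1 of 3 for Col14a1. They were 1 of 1 for Col2a1, Col5a3 and Col11a1, and 0 of 1 for Col4a4, Col4a5, Col8a2, Col9a1, Col16a1 and Col24a1. The cells rich in Col7a1 (cell 34 of rat 3) and in Col6a4 (cell 48 of rat 3) had 0 counts of Col1a1 and of Col3a1.

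Pairs of chains that assemble into the same protein were compared with all other pairs. Of the 13 pairs listed, 10 had both rows. Summed over pairs, among cells with either chain at 1 count 13.5% ± 7.33 had both chains of a partner pair, against 14.5% ± 4.39 for the other pairs of the 42 genes (SD, n = 3 rats). The difference was -0.94 ± 4.11 points, positive in rat 1 and negative in rats 2 and 3 (exact permutation p = 0.75, adjusted p = 0.833). The highest overlap was that of Col11a1 and Col11a2, in 8 of 24 cells, followed by Col8a1 and Col8a2 in 6 of 28. Of all 861 pairs of collagen genes, 23 met at 5 counts in at least 1 cell, and no partner pair was among them. In every partner pair but Col8a1 and Col8a2, at least 1 chain never reached 5 counts. Those pairs could not have met at 5 counts, so their absence says nothing about partner chains.

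**Figure D5:**
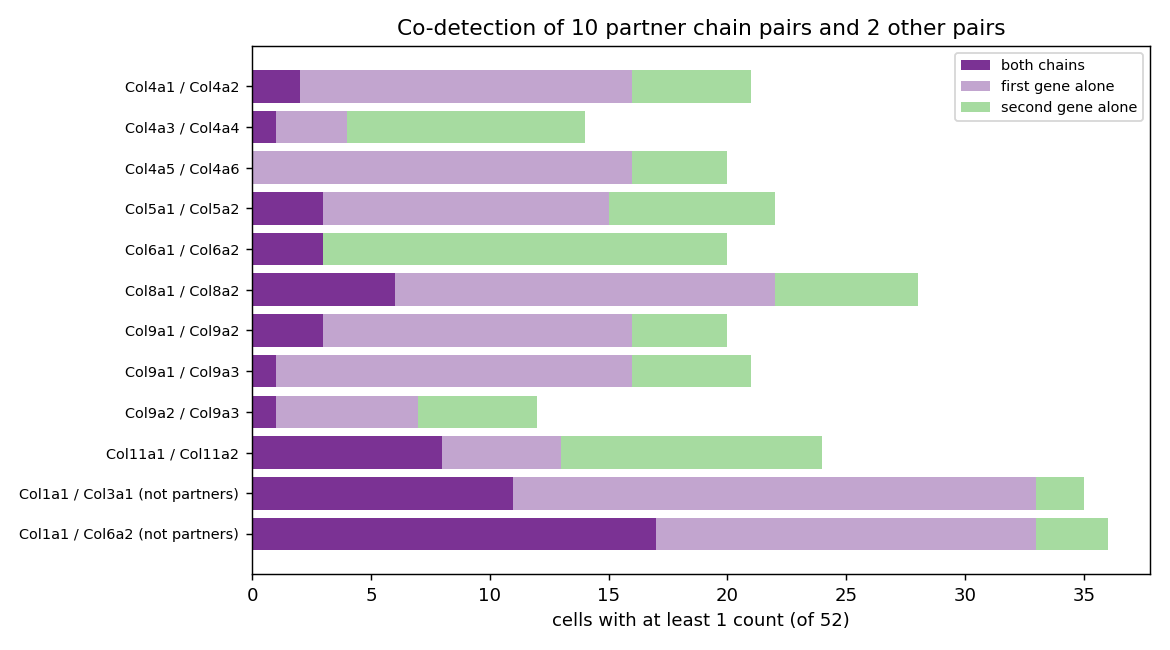
Cells (of 52) with at least 1 count of either gene of a pair, split into both genes (dark), first gene alone and second gene alone, for 10 partner pairs and, below them, Col1a1 with Col3a1 and with Col6a2. Partner pairs met in 0 to 8 cells, and Col1a1, found in 33 cells, met Col3a1 in 11 cells and Col6a2 in 17. The product of the 2 genes' shares of cells, times 52, was 0.81 to 5.08 for partner pairs. It was 8.25 for Col1a1 with Col3a1 and 12.7 for Col1a1 with Col6a2.

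Genes that serve collagen outside the family were read from lists chosen with earlier results known. Of 12 measured enzymes that modify collagen chains, 11 had a count in some cell and 2 reached 5 counts, beside 84% and 27.4% of all genes. Those were P4hb, a subunit of prolyl hydroxylase, and the glycosyltransferase Colgalt1. P4hb reached 5 counts in 4 cells, all of them Col1a1 cells at 5 counts. Of all 52 cells, 15 were Col1a1 cells at 5 counts. No share over all genes was computed for overlaps with them. Plod3, Colgalt1 and Plod2 were the most widely found, in 17, 13 and 12 cells. Of 8 chaperone and export genes 5 reached 5 counts, beside the same 27.4%. Serpinh1, the collagen chaperone HSP47, was found in 16 cells and had 77 counts in cell 20 of rat 2. The export gene Sec31a was found in 15 cells, and the chaperones Hspa5 and Pdia3 in 11 each. Among cells at 5 counts, Col1a1 cells were 2 of 2 for Serpinh1 and for Fkbp10 and 2 of 3 for Pdia3. They were 3 of 6 for Ppib and 2 of 6 for Hspa5. Of 6 procollagen processing genes 2 reached 5 counts (27.4% of all genes), and Tll1, Adamts2 and Adamts3 were found in 12, 10 and 8 cells.

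Of 9 genes that organise or bind fibrils, 5 reached 5 counts in some cell, beside 27.4% of all genes. Sparc, a collagen-binding matricellular protein, was found in 24 cells and reached 5 counts in 10, of which 9 were Col1a1 cells at 5 counts. Bgn, the proteoglycan biglycan, reached 5 counts in 6 cells, all among the Col1a1 cells. Dcn, Lum, Postn, Kera and Thbs2 followed with 8 cells each. Of 10 collagen receptors 7 reached 5 counts (27.4% of all genes), with Ddr2, Itga10 and Itga1 found in 22, 18 and 13 cells. Among cells at 5 counts, Col1a1 cells were 1 of 3 for Itgb1, 1 of 2 for Ddr2, 0 of 2 for Itga1 and 0 of 1 for Ddr1. They were 1 of 1 for Itga2, Itga10 and Mrc2.

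Across 52 cells, the non-member genes whose log2(CPM + 1) was most like that of Col1a1 were Sparc (r = 0.53), Fn1, which encodes fibronectin (0.53), Itm2b (0.51), Ypel4 (0.50) and Arpc4 (0.49), among genes found in at least 10 cells. Col3a1 stood at r = 0.52. Cells share depth and rat, so these r values are descriptions.

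Markers of several cell types stood beside the fibrillar counts. The 17 cells with a fibrillar gene at 5 counts are named by their own counts, so what follows describes them without a test. At least 1 of 21 macrophage markers reached 5 counts in 14 of these 17 cells and in 12 of the other 35. The summed macrophage counts ran from 1 to 529 with a median of 17 in the 17 cells, and from 0 to 1545 with a median of 3 in the 35. In the 17 cells 19 of the 21 markers had a count, and C1qa and Ctss, found in 3 and 2 of all 52 cells, were at 0. Of 11 fibroblast markers other than collagens, at least 1 reached 5 counts in 5 of the 17 cells and in 3 of the 35. Their sums were 0 to 292 and 0 to 14, and Clec3b was at 0 in all 52 cells.

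Smooth muscle markers reached 5 counts in 6 of the 17 cells and in 11 of the 35, with sums of 0 to 179 and 0 to 32. Cnn1 and Smtn, found in 3 and 2 of all 52 cells, were at 0 in the 17. Endothelial markers reached 5 counts in 7 of the 17 and in 6 of the 35, with sums of 0 to 23 and 0 to 19. Emcn, found in 2 of all 52 cells, was at 0 in the 17. Cartilage and bone markers reached 5 counts in 7 of the 17 and 14 of the 35, and Schwann cell markers in none of either. Total counts also moved with the split, with a median of 19915 in the 17 cells and 12215 in the 35. Over all 52 cells the markers found in most cells were Fcgr3a (35 cells), Cybb (16) and Spi1 (16) of the macrophage list and Fbln1 (33), Fstl1 (14) and Thy1 and Dpt (10 each) of the fibroblast list. For smooth muscle they were Mylk (39), Acta2 (35) and Myocd (22), and for endothelium Kdr (36), Nos3 (28) and Vwf (16). For cartilage and bone they were Sox9 (45), Runx2 (26) and Sp7 (10), and for Schwann cells Ncam1 (23), Mbp (15) and Sox10 (11). The part of these markers and of depth in the fibrillar counts was not tested.

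The 9 cells with a collagen at 100 counts differed in their markers, and in some of them 1 marker held nearly all counts of its list. In cell 20 of rat 2, beside 398 Col1a1 counts, C1qc, a complement gene, held 113 of 119 macrophage counts, and it was the only 1 of 21 macrophage markers at 5 counts. Lyz2, Tyrobp and C1qb were at 0 there, and 4 fibroblast markers reached 5 counts, with a sum of 40. In cell 10 of rat 2, beside 144 Col1a1 counts, C1qb held 55 of 58 macrophage counts, and C1qc, Lyz2, Tyrobp and Csf1r were at 0.

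Cell 14 of rat 2 had 3 macrophage markers at 5 counts, with a sum of 56, and 2 fibroblast markers, with a sum of 41. Cell 27 of rat 2, with 226 Col3a1 counts, had 3 macrophage markers at 5 counts, with a sum of 66, and no fibroblast or smooth muscle marker at 5. Cell 33 of rat 3 had a macrophage sum of 17 with 3 markers at 5 counts, and sums of 10 each for fibroblast and smooth muscle markers.

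Cell 43 of rat 3 had 3 smooth muscle markers at 5 counts, Cald1 with 31, Acta2 with 10 and Des with 6, in a sum of 52. Its macrophage sum was 15, of which Fcgr3a held 11 as the only marker at 5 counts. In cell 45 of rat 3 the fibroblast sum was 292, of which Lum held 284 while Dcn was at 0. The same cell had a smooth muscle sum of 179, of which Myocd held 173, and a macrophage sum of 19, of which Tyrobp held 18. Cell 34 of rat 3, rich in Col7a1, had 44 Lyz2 counts in a macrophage sum of 46, and cell 48 of rat 3, rich in Col6a4, had no macrophage, fibroblast or smooth muscle marker at 5 counts. Cd68 and Ptprc, each found in 6 of the 52 cells, were at 0 in all 9 cells. Fcgr3a, found in 35 of the 52 cells, had a count in each of the 9 but cell 45 of rat 3.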

How the data were processed

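The deposited file gives raw counts, whole numbers for every gene in every cell, as its values show. Libraries were made with the SMART-Seq Single Cell Plus kit, per the labels' protocols. Neither aligner, read counter, genome build nor duplicate handling is given in the sources used here, and the strand setting is unknown, so reads of antisense partners cannot be separated. The sheet of index sequences was not used. Columns were assigned to cells and rats by their titles, with 0 left over, and no 2 columns were identical.

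A gene was detected at 1 count, or at 5 counts where stated. For levels, each deposited count was divided by its cell's total to give CPM, and log2(CPM + 1) was taken. Class values were averaged over the cells of each rat and differences were tested by a 2-sided exact sign-flip permutation over 3 rats, adjusted over 10 tests by Benjamini-Hochberg. With 1 group there was no gene-wise test, and edgeR gave only TMM library sizes. The collagen classes, partner pairs, other lists and the rule for named genes were chosen with earlier results of these data known. That rule took the 6 members found in most cells, the 6 with the highest count, partner chains with a cell at 5 counts, the 5 genes most like Col1a1 and the 3 members of each list found in most cells; genes outside it were chosen after their values were seen. Doublets were not called, and whether a cut held material of more than 1 cell was not tested. Procedures were tested on simulated data. The labels give cells by rat and do not say how lesions were sampled, and the rat was the replicate. Promoter sequences and gene spans are from RefSeq, GRCr8, which held all 42 member symbols. Tools were Python 3.11.15, numpy 2.4.6, pandas 2.3.3, scipy 1.17.1, matplotlib 3.10.9, R 4.3.3 and edgeR 4.0.16.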

Additional observations from a re-analysis of the deposited data

How the results depend on the processing

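Of 85 other settings tried for the 10 differences, leaving out rats and single cells apart, 80 kept the direction and 5 reversed. Of these, 3 were for basement membrane minus other collagens at 5 counts: -0.11 points without cells under 1000 genes, -0.22 with Col15a1 and Col18a1 as basement membrane and -1.16 at 2 counts. The other 2, chosen after seeing the data, were the fibrillar lead at 5 counts, which was -0.26 points over basement membrane and -0.17 over other collagens without Col1a1 and Col3a1. With cells thinned to 10181 counts, which leaves 39 cells, the lead at 1 count was 10.0 and 6.90 points. Not all of the 85 settings were separate checks. Keeping members with a count in at least 3 cells left all 42, so for each of the 10 differences it could only repeat the main value. The class settings at 2 counts gave the same values for the differences at 1 and at 5 counts, and are counted under both.

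Leaving out 1 rat or 1 cell gave 6.73 to 12.8 points for fibrillar minus basement membrane and 5.52 to 11.3 for fibrillar minus other collagens at 1 count, and 2.65 to 4.78 and 3.21 to 4.24 at 5 counts. On the log2 scale these were 0.56 to 0.98 and 0.56 to 0.81. Basement membrane minus other collagens ran from -3.01 to 1.69 points at 1 count, from -0.53 to 0.67 at 5 counts and from -0.22 to 0.093 on the log2 scale. Partner minus other pairs ran from -3.09 to 1.02 points. These last 4 crossed 0, at 1 count and on the log2 scale without cell 1, cell 2 or rat 3, at 5 counts without cell 13, 17, 21 or 43 or rat 2, and for partner pairs without cell 2 or rat 2. The fibrillar share of collagen counts ran from 35.9% to 40.8%, the basement membrane share from 9.56% (without cell 3 of rat 1) to 20.0% and the collagen share of all counts from 0.251% to 0.506%.

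The fibrillar share was 70.8% in summed counts and 42.6% without cells under 1000 genes, and the basement membrane share 3.30% in summed counts. Fibrillar and basement membrane genes met in 36 cells at 1 count, 19 at 2, 2 at 5 and 1 at 10, and at 5 counts in 1 to 2 cells with a rat left out. Any collagen was found in 52 cells at 1 count, 47 at 2 and 27 at 5, and at 5 counts in 11 to 25 cells with a rat left out. Leaving out the 2 cells in which 1 feature took over 40% of counts, and single cells, was chosen after seeing the data. The first kept every direction. The partner difference could not be computed at 5 counts, as no partner chain reached it in rat 1. No paired analysis of groups was possible because all cells belong to 1 group; the class differences were taken within rats. Depth limits every value of 1 to 4 counts.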

Other observations

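Col3a1 had its own neighbours. The genes most like it over 52 cells, among those found in at least 10 cells, were Vim, which encodes the filament protein vimentin (r = 0.63), Rpl23a (0.59), the unnamed feature NEWGENE_621351_2 (0.57), the gelatinase Mmp2 (0.55) and Tnc, which encodes the matrix protein tenascin-C (0.53). These genes were chosen after the values were seen, and the r values describe cells that share depth and rat.

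The feature NEWGENE_621351_2 had at least 5 counts in 7 cells. It had 518 counts in cell 14 of rat 2, 281 in cell 20 of rat 2 and 301 in cell 33 of rat 3, cells with 356, 398 and 397 Col1a1 counts. In cell 43 of rat 3, with 293 Col1a1 counts, it had 0. The files and the reference table do not name it, and whether it is a collagen gene is not known here. Its counts are in none of the class values.

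The length of the gene on the chromosome was set beside detection. Over 42 members the Spearman rho between gene span and the number of cells with 1 to 4 counts was -0.08, for all cells with a count -0.11 and for cells at 5 counts -0.19. Genes are not independent replicates, so this describes the family.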
